A study of Homo sapiens with 52 samples.

Results

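The 7 genes described here encode ligands of the EGF family that bind ErbB receptors, AREG (amphiregulin), TGFA (transforming growth factor alpha), EPGN (epigen), EREG (epiregulin), HBEGF (heparin-binding EGF-like growth factor), BTC (betacellulin) and NRG1 (neuregulin 1). They were chosen by name from the 78894 genes in the deposited tables, and all 7 were found. The study knocked down neuropilin-1 (NRP1), a transmembrane co-receptor, in SUM159PT (17 samples), MDA-MB-231 (18 samples) and HS578T (17 samples), which are established breast cancer cell lines, and sequenced poly(A)-selected RNA with strand information. In every cell line the siRNA groups were siNT, siNRP1#3 and siNRP1#5 (20 nM of siRNA, RNA taken 72 hrs after transfection), and the shRNA groups were shNT, shNRP1#3 and shNRP1#5 (lentivirus carrying pLKO.1 constructs, puromycin selection, RNA taken 48 hrs after seeding). NT is the non-targeting control of each delivery method, the #3 sequences were designed against transmembrane NRP1 alone, and the #5 sequences against all NRP1. All cells were grown in medium with serum, and every comparison below is between cells that had received an siRNA or a construct. There were 3 replicates per group, but 2 in SUM159PT siNRP1#5 (numbers 2 and 3) and in HS578T shNRP1#3 (numbers 1 and 2).

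EGF family ligands are made as membrane-anchored precursors. Metalloproteases of the ADAM family release the soluble growth factor, which then acts on the producing cell or its neighbours. AREG, TGFA and EPGN bind EGFR, whereas EREG, HBEGF and BTC can bind EGFR and ERBB4, and NRG1 binds ERBB3 and ERBB4. ERBB2 has no known ligand and pairs with the other receptors. In breast epithelium AREG is known as a mediator of oestrogen-driven duct growth, and several ligand genes are themselves induced when the RAS-ERK pathway is active.

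Expected counts per sample summed to between 25310443 and 72003442, with a median of 44804505. NRP1 was at 14.5 to 64.2% of the mean of its own NT control in the 9 siNRP1#3 samples, 2.55 to 22.6% in the 8 siNRP1#5 samples, 31.1 to 54.1% in the 8 shNRP1#3 samples and 16.7 to 50.6% in the 9 shNRP1#5 samples. The lines are described as claudin-low. CDH1 was at most 3.33 TPM (a level scaled for library size and transcript length) and VIM at least 1310 TPM in every sample, but MDA-MB-231 had CLDN4 at 62.6 to 226 TPM and CLDN7 at 10.4 to 61.5 TPM, so these claudin transcripts were not absent there. Levels are those of a bulk sample, in which fewer cells that express a gene and less RNA per cell cannot be told apart.

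Some HS578T libraries stood apart before any ligand was considered. 7 genes that were at 20 CPM or more in every MDA-MB-231 control and near 0 in the other lines (EVPL and FBP1 among them) were also present in HS578T siNRP1#5, where their median level was 24.1, 15.9 and 13.1% of that in MDA-MB-231 controls (CPM, read counts scaled to a common library size after TMM normalisation). All 7 were above 0 in each of these libraries, and the single markers ranged from 10.5 to 32%. In HS578T siNRP1#3 the median was 2.01, 2.61 and 6.49%, and in HS578T siNT it was 0.528, 0.614 and 1.98%. Replicate 2 of HS578T siNRP1#5 also carried 13 SUM159PT markers at 5.58% of their own level. In the SUM159PT and MDA-MB-231 libraries the markers of another line reached at most 1.76%. The origin of these transcripts was not tested. Each ligand gene called in an HS578T knockdown is therefore given with the counts as deposited and after the marker share of the other lines was subtracted.

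Of the 7 genes, 4 lie together on chromosome 4 (GRCh38, GENCODE annotation). In order these are EPGN (chr4:74308470-74316789, plus strand), EREG (chr4:74365145-74388749, plus strand), AREG (chr4:74445136-74455005, plus strand) and BTC (chr4:74744759-74794523, minus strand). They span 486054 bp with 0 other protein-coding genes between neighbours, and the gap from EREG to AREG is 56386 bp. HBEGF lies on chromosome 5 (chr5:140332843-140346603, minus strand) and TGFA on chromosome 2 (chr2:70447284-70554193, minus strand). TGFA contains a noncoding gene on its own strand, TGFA-IT1, whose reads can be shared with it. The promoters of AREG and EREG are printed because these neighbours changed in opposite directions in MDA-MB-231 siNRP1#5. Each covers 250 bases before and 50 after the start in RefSeq on GRCh38.p14, plus strand, 5′ to 3′, with motif matches in capitals.
AREG promoter, chr4:74444886-74445185: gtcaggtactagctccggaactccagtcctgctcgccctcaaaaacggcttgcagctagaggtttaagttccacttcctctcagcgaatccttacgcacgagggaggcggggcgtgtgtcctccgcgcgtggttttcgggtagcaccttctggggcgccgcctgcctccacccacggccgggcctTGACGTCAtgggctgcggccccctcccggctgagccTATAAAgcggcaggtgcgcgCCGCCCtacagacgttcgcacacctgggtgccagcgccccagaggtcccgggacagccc
EREG promoter, chr4:74364895-74365194: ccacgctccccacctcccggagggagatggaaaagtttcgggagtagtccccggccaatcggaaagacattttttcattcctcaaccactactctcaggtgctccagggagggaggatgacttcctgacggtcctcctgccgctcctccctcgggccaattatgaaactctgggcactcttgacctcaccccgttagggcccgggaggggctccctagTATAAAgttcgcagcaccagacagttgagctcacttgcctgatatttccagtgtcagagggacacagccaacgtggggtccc
On both strands 5 motifs were searched: TGACGTCA (the cAMP response element), TGANTCA (AP-1), TATAAA (the motif known as the TATA box), GGGCGG (the motif known as the GC box, which reads CCGCCC on the opposite strand) and CACGTG (E box). The AREG window held the cAMP response element from position -65, the TATA box from -29 and the GC box from -9, counted from the start, whereas the EREG window held the TATA box alone, from -32. Among 35116 promoters of this length, 1.85% held the cAMP response element, 7.71% the AP-1 motif, 11.5% the TATA box, 45% the GC box and 7.26% the E box. No motif searched overlapped another in these windows. A match describes letters in the window and is not evidence of binding.

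The NT controls show which ligands each line expressed (6 samples per line, deposited TPM). MDA-MB-231 had the highest summed ligand level, 90.4 to 193 TPM over all its samples, against 18 to 87.1 in SUM159PT and 11.2 to 80.5 in HS578T. HBEGF was a leading ligand in all lines, at 44.1 ± 17.8 TPM (SD, n = 6) in MDA-MB-231, 8.68 ± 5.05 in SUM159PT and 5.04 ± 1.22 in HS578T. AREG was at 31.3 ± 12.3 TPM in MDA-MB-231 and TGFA at 23.8 ± 4.71 TPM. In SUM159PT AREG was at 0.972 ± 0.22 TPM and TGFA at 2.74 ± 0.741 TPM, while in HS578T both had a mean of at most 0.198 TPM. EREG showed another order, highest in SUM159PT with 11.9 ± 7.38 TPM, then 4.5 ± 3.52 TPM for MDA-MB-231 and 0.035 ± 0.0532 TPM for HS578T. NRG1 was abundant in all 3 lines, at 8.12 ± 7.83, 20.4 ± 6.7 and 13.2 ± 4.91 TPM in SUM159PT, MDA-MB-231 and HS578T. BTC was at a mean of at most 0.408 TPM in any line and EPGN at most 0.568 TPM.

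**Figure D1:**
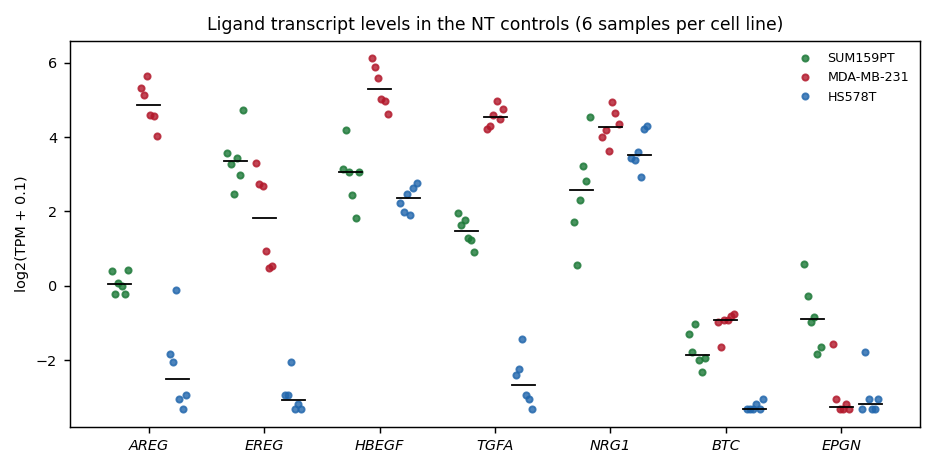
Levels of the 7 ligand genes in the NT controls, as log2(TPM + 0.1) on the y axis, with 1 point per sample (6 per cell line, siNT and shNT together) and a bar at the median. TGFA separates the 3 lines without overlap, AREG separates MDA-MB-231 from the other lines, EREG is lowest in HS578T, and the NRG1 points of the lines overlap.

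Over all samples of a line, NRG1 made up on average 60.6% of the summed ligand TPM in HS578T (17 samples, 30.3 to 86.6%) and HBEGF 34.4%. In MDA-MB-231 the mean shares were 34.2% for HBEGF, 25.2% for AREG, 22.8% for NRG1 and 14.8% for TGFA. In SUM159PT they were 33% for HBEGF, 27.7% for NRG1 and 26.9% for EREG. The receptors for these ligands were not equally present. EGFR had a median of 10.5, 23.4 and 13.6 TPM in SUM159PT, MDA-MB-231 and HS578T, and ERBB2 31.8, 33.2 and 13 TPM. ERBB3, a receptor of NRG1, had medians of 0.36, 2.11 and 1.2 TPM, and ERBB4 did not exceed 0.05 TPM in any sample.

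Between the NT controls of the lines, most ligand genes differed by edgeR's quasi-likelihood test over all 23416 genes tested (Benjamini-Hochberg adjusted p under 0.05). MDA-MB-231 against SUM159PT called 5 of 7, where 59.4% of all genes were called. AREG (log2 fold change 4.56 ± 0.39, SE; adjusted p = 9.88e-12), TGFA (2.7 ± 0.23, adjusted p = 5.97e-13) and HBEGF (1.96 ± 0.26, adjusted p = 4.22e-08) were higher in MDA-MB-231, whereas EREG was lower (-2.20 ± 0.36, adjusted p = 2.76e-06) and EPGN, with at most 2 counts in any MDA-MB-231 control, was lower too. HS578T against SUM159PT called 6 of 7 with a background of 63.5%, and HS578T against MDA-MB-231 called 5 of 7 with a background of 70.2%. HBEGF was lower in HS578T than in MDA-MB-231 (-2.27 ± 0.26, adjusted p = 1.38e-09). AREG, EREG, TGFA and BTC were lower in HS578T than in both other lines, with only 0 to 4 counts of each in the 3 shNT samples. NRG1 was the only ligand gene called higher in HS578T, against SUM159PT alone (1.12 ± 0.4, adjusted p = 0.016), and that call was lost without replicate 1 (0.0729) or replicate 2 (0.18) of every group.

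Across the 18 groups, ordered by mean CPM, TGFA had the fewest neighbouring pairs of groups whose ranges overlapped, 11 of 17. For AREG 13, for EREG 14, for EPGN 15 and for HBEGF 16 of the 17 neighbouring pairs overlapped, and for NRG1 and BTC all 17 did, so most neighbours in these orders did not differ beyond their spread. The highest AREG group was MDA-MB-231 siNRP1#5 at a mean of 77.4 CPM, followed without overlap by MDA-MB-231 siNT at 30.8 CPM. The highest NRG1 mean was that of HS578T shNRP1#3 at 66.2 CPM, with MDA-MB-231 shNRP1#5 next at 58.1 CPM, and by TPM the latter came first.

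Knockdown comparisons were tested in 1 model per line, with 20067 genes tested for SUM159PT, 18800 for MDA-MB-231 and 19661 for HS578T. The expression filter kept all 7 ligand genes in SUM159PT, 6 in MDA-MB-231 (not EPGN) and 5 in HS578T (not BTC or EPGN), which gave 72 tests of a ligand gene, of which 20 were called (27.8%), 10 higher and 10 lower. Over all genes 11.3% of tests were called. The 6 siRNA comparisons held 14 of these calls (38.9% of 36 tests, against 17.3% over all genes) and the 6 shRNA comparisons 6 (16.7%, against 5.34%). Of the siRNA calls, 4 were in HS578T siNRP1#5, whose libraries carried MDA-MB-231 markers. After subtraction of the other lines' share, AREG and TGFA were not called there and EREG did not pass the expression filter. The comparisons of 1 delivery method and line share their NT samples, so the calls are not independent of each other.

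By comparison, SUM159PT siNRP1#3 had 1 ligand gene called where 8.66% of all genes were called, siNRP1#5 had 4 (17.9%), shNRP1#3 1 (1.4%) and shNRP1#5 2 (5.94%). MDA-MB-231 siNRP1#3 had 1 (25.7%), siNRP1#5 3 (29.4%), shNRP1#3 0 (3.65%) and shNRP1#5 3 (20.7%). HS578T siNRP1#3 had 1 (4.65%), siNRP1#5 4 (18.7%), shNRP1#3 0 (0.0356%) and shNRP1#5 0 (0.946%). Where edgeR called 0, an unadjusted p under 0.05 was reached by 3 ligand genes for MDA-MB-231 shNRP1#3, 1 for HS578T shNRP1#3 and 2 for HS578T shNRP1#5, and DESeq2 called 0, 0 and 1. The 16.7% of ligand genes called in MDA-MB-231 siNRP1#3 and the 14.3% in SUM159PT siNRP1#3 were a single gene each, against 25.7 and 8.66% of all genes. TGFA was called in 5 of its 12 comparisons, HBEGF and EREG in 4 each, AREG in 3, EPGN in 2 of 4, BTC in 1 of 8 and NRG1 in 1 of 12.

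**Figure D2:**
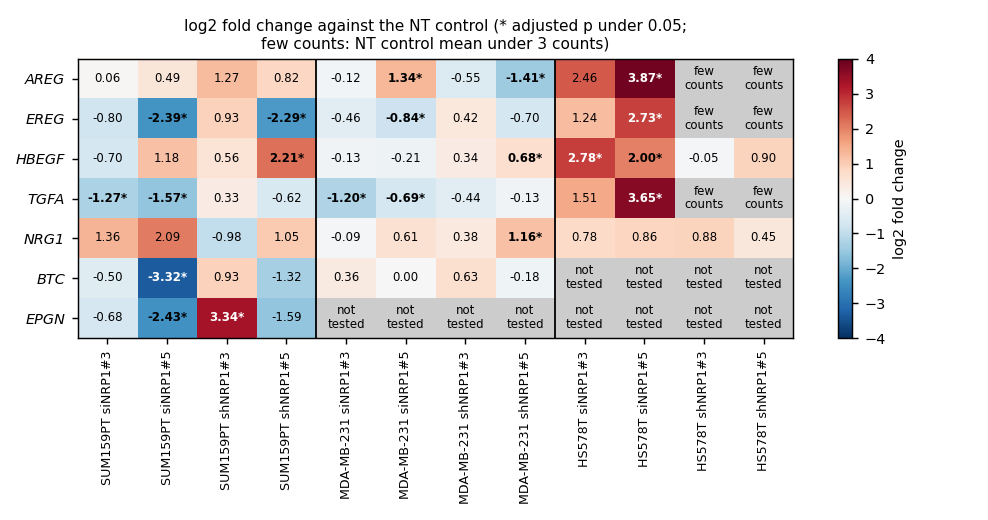
log2 fold change of each ligand gene (rows) against the NT control of the same delivery method in 12 comparisons (columns), from blue (lower) to red (higher), with the value in each cell and an asterisk where the adjusted p was under 0.05. TGFA was lower with all siRNAs in SUM159PT and MDA-MB-231, and HBEGF higher in 4 comparisons. Grey cells were not tested or had a control mean under 3 counts.

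AREG moved in opposite directions with the siRNA and the shRNA of the same #5 sequence in MDA-MB-231. With siRNA it was at 28.1, 27 and 37.3 CPM in siNT and at 71.6, 52.6 and 108 CPM in siNRP1#5. All siNRP1#5 samples lay above all siNT samples, and the log2 fold change was 1.34 ± 0.24 (SE, adjusted p = 0.000454). With shRNA it was at 16.5, 16.1 and 10.9 CPM in shNT and at 6.94, 4.94 and 4.41 CPM in shNRP1#5, again without overlap but lower (-1.41 ± 0.25, adjusted p = 0.000886). The difference between the 2 changes was 2.75 ± 0.35 (adjusted p = 2.61e-05). With the #3 sequences AREG was not called, at 24.4, 26.8 and 32.5 CPM in siNRP1#3 (-0.12 ± 0.24, adjusted p = 0.763) and at 9, 12.9 and 7.47 CPM in shNRP1#3 (-0.55 ± 0.25, adjusted p = 0.268).

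In SUM159PT AREG stayed between 0.572 and 2.71 CPM in every sample, and none of the 4 knockdown comparisons was called. The HS578T values were 0.182, 0.173 and 1.08 CPM in siNT, 0.956, 2.18 and 4.49 CPM in siNRP1#3 and 15.7, 1.91 and 2.2 CPM in siNRP1#5. The siNRP1#5 samples were all above siNT, with replicate 1 far above the others (log2 fold change 3.87 ± 0.82; adjusted p = 0.0068). The call was lost without that replicate (2.11, adjusted p = 0.0565) and after subtraction of the other lines' share (4.60, adjusted p = 0.0863). The MDA-MB-231 share at its siNT level would bring 7.41, 4.9 and 4.03 CPM of AREG into these 3 libraries, and at its siNRP1#5 level 18.6, 12.3 and 10.1 CPM. Replicates 2 and 3 measured less than the siNT-level share and kept no AREG counts after subtraction, so the change of 4.60 rests on replicate 1. In the HS578T shRNA groups AREG had 1, 0 and 1 counts in shNT, 4 and 8 in shNRP1#3 and 9, 12 and 32 in shNRP1#5. The summed counts of shNRP1#5 against shNT, 53 and 2, gave a ratio of 18.3 (95% exact interval 4.83 to 155, counting error only), while the model did not call it (adjusted p = 0.152).

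TGFA was lower with both siRNAs in SUM159PT and in MDA-MB-231. In SUM159PT it was at 11.3, 12.2 and 10.1 CPM in siNT, at 3.66, 5.62 and 4.4 CPM in siNRP1#3 and at 4.23 and 3.11 CPM in siNRP1#5. No knockdown sample reached the lowest control, with log2 fold changes of -1.27 ± 0.23 (adjusted p = 0.00325) and -1.57 ± 0.26 (0.00156). In MDA-MB-231 it was at 37.7, 45.4 and 56.6 CPM in siNT and at 18, 19.8 and 21.9 CPM in siNRP1#3 (-1.20 ± 0.19, adjusted p = 0.00016), without overlap. In MDA-MB-231 siNRP1#5 it was at 24.7, 21.9 and 39.6 CPM, where replicate 3 lay within the siNT range (-0.69 ± 0.19, adjusted p = 0.00964). This last call was lost without any of 3 libraries (siNRP1#5 replicate 1, 0.0503, or replicate 2, 0.0578, or siNT replicate 3, 0.0572) and when only the compared groups were fitted (0.102). The SUM159PT siNRP1#5 call, which rests on 2 samples, was also lost in a fit of the compared groups alone (0.0961).

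The shRNA comparisons gave no TGFA call. In SUM159PT TGFA was at 5.5, 5.63 and 4.28 CPM in shNT, at 6.78, 6.5 and 5.73 CPM in shNRP1#3 and at 3.28, 3.36 and 2.96 CPM in shNRP1#5 (-0.62 ± 0.23; adjusted p = 0.141). The shNRP1#5 samples lay below the shNT samples although the test was not passed. In MDA-MB-231 the shRNA groups ranged from 31.4 to 61.6 CPM and overlapped. The change with siNRP1#5 against that with shNRP1#5 differed by -0.96 ± 0.35 in SUM159PT (0.135) and by -0.55 ± 0.26 in MDA-MB-231 (0.141), neither past the threshold.

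In HS578T TGFA was at 0.363, 0.491 and 1.02 CPM in siNT, at 0.729, 1.67 and 2.78 CPM in siNRP1#3 and at 8.97, 7.55 and 6.41 CPM in siNRP1#5. The last group lay above all others of this line, with a log2 fold change of 3.65 ± 0.64 (adjusted p = 0.002). The MDA-MB-231 share in the same libraries would bring 11.2, 7.41 and 6.1 CPM at the MDA-MB-231 siNT level, more than measured in replicate 1 and about as much in the others, and 6.91, 4.57 and 3.76 CPM at its siNRP1#5 level, less than measured in each library. After subtraction at the siNT level the change was -0.04 (0.988), and with a wider list of 33 markers 0.90 (0.723). Subtraction at the siNRP1#5 level was not tested.

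**Figure D3:**
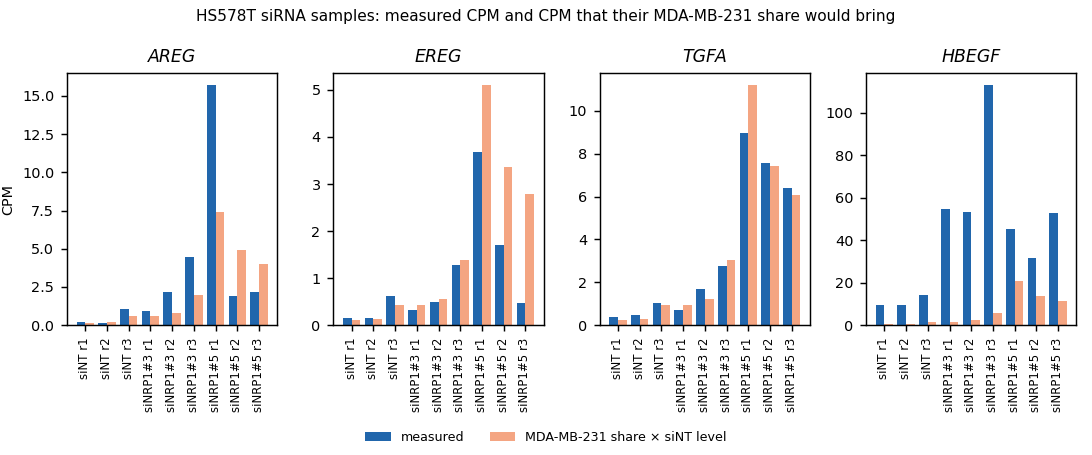
AREG, EREG, TGFA and HBEGF in the 9 HS578T siRNA samples, in CPM, as measured (blue bars) and as the MDA-MB-231 marker share of each sample would bring at the MDA-MB-231 siNT mean (orange bars). For TGFA the bars of siNRP1#5 are of like height, 8.97 against 11.2 CPM in replicate 1, while measured HBEGF, at 45.3 CPM in replicate 1, exceeds the 20.7 CPM that the share would bring.

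EPGN had enough counts for a test in SUM159PT alone, where it had 18, 10 and 24 counts (0.366, 0.201 and 0.402 CPM) in shNT and 228, 63 and 166 counts (3.51, 1.74 and 4.5 CPM) in shNRP1#3. All shNRP1#3 samples lay above all other SUM159PT samples, and the log2 fold change was 3.34 ± 0.53 (adjusted p = 0.00499). With shNRP1#5 it had 4, 7 and 4 counts (-1.59 ± 0.63, adjusted p = 0.159). With siRNA it had 46, 12 and 15 counts in siNT and 5 and 3 in siNRP1#5, a log2 fold change of -2.43 ± 0.74 (0.0302). The summed counts, 8 against 73, gave a ratio of 0.163 (95% exact interval 0.068 to 0.339). That call was lost with the replicate number as a block (0.0501), without siNRP1#5 replicate 3 (0.198) or siNT replicate 1 (0.13), and in a fit of the compared groups alone (0.181). EPGN had at most 3 counts in any MDA-MB-231 sample and at most 9 in any HS578T sample.

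EREG was lower with both #5 constructs in SUM159PT. It was at 42.4, 42.4 and 18.3 CPM in siNT and at 5.54 and 7.14 CPM in siNRP1#5 (log2 fold change -2.39 ± 0.6; adjusted p = 0.0209), and at 30.3, 24.3 and 85.5 CPM in shNT and 4.52, 7.16 and 15.9 CPM in shNRP1#5 (-2.29 ± 0.53, adjusted p = 0.0228). Neither pair of groups overlapped, and the 2 changes differed by -0.10 ± 0.8 (0.961). The spread among controls was wide, and both calls depended on single libraries. The first was lost without siNRP1#5 replicate 2 (0.103) or 3 (0.0734) or siNT replicate 1 (0.0525), and the second without shNRP1#5 replicate 1 (0.0989) or 2 (0.114) or shNT replicate 3 (0.124). In fits of the compared groups alone they had adjusted p = 0.0681 and 0.0528. With the #3 constructs EREG was at 19.6, 17.4 and 21.1 CPM in siNRP1#3 (-0.80, adjusted p = 0.381) and at 140, 36.4 and 85.2 CPM in shNRP1#3 (0.93, adjusted p = 0.512), both overlapping their controls.

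In MDA-MB-231 EREG was at 26.1, 19 and 18.5 CPM in siNT and at 15.1, 8.31 and 11.9 CPM in siNRP1#5, all below the controls (-0.84 ± 0.24; adjusted p = 0.0121). The call was lost without siNRP1#5 replicate 2 (0.0718) or siNT replicate 1 (0.0721) and with only the compared groups (0.0548). In the same samples AREG, its neighbour on chromosome 4, was higher. With shNRP1#5 it was at 2.57, 1.87 and 2.18 CPM against 5.04, 2.93 and 2.86 CPM in shNT, all below and just short of the threshold (-0.70 ± 0.25, adjusted p = 0.0558). In HS578T EREG had 4, 5 and 19 counts in siNT and 100, 65 and 18 in siNRP1#5, where replicate 3 lay below the highest control (2.73 ± 0.8, adjusted p = 0.0286). Measured levels were 3.69, 1.7 and 0.465 CPM, while the MDA-MB-231 share would bring 5.1, 3.37 and 2.78 CPM at its siNT level and 2.83, 1.87 and 1.54 CPM at its siNRP1#5 level, the latter less than measured in replicate 1. After subtraction at the siNT level EREG did not pass the expression filter. The call was also lost without siNRP1#5 replicate 1 (0.152) or 2 (0.0525) or siNT replicate 1 (0.0875) or 2 (0.118). In HS578T shRNA samples EREG had 0 to 3 counts.

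HBEGF was higher in the 4 knockdown comparisons where edgeR called it. In HS578T it was at 9.41, 9.44 and 14.4 CPM in siNT, at 54.5, 53.3 and 113 CPM in siNRP1#3 and at 45.3, 31.7 and 52.7 CPM in siNRP1#5. Both knockdown groups lay wholly above the control, with log2 fold changes of 2.78 ± 0.39 (adjusted p = 0.00127) and 2.00 ± 0.39 (0.00324). The MDA-MB-231 share at its siNT level would bring 20.7, 13.7 and 11.3 CPM into the siNRP1#5 samples, and after subtraction the changes were 2.91 (0.00219) and 1.81 (0.0124). Neither call was lost when any 1 library was left out. In the HS578T shRNA groups HBEGF was at 8.67, 14.3 and 14.2 CPM in shNT, at 9.01 and 15.3 CPM in shNRP1#3 and at 13.3, 18.9 and 38.2 CPM in shNRP1#5 (0.90 ± 0.39, adjusted p = 0.235), which became a call once replicates of the same number were blocked together (0.81, adjusted p = 0.0416).

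In SUM159PT HBEGF was at 8.96, 5.63 and 14.3 CPM in shNT and at 19.5, 53.1 and 55.6 CPM in shNRP1#5, without overlap (2.21 ± 0.43; adjusted p = 0.00808). With siNRP1#5 it was at 42.7 and 59.2 CPM against 15.9, 39.2 and 14 CPM in siNT, also above but not called (1.18 ± 0.48, adjusted p = 0.0953). That comparison passed the threshold without siNT replicate 2, the highest control (1.80, adjusted p = 0.0141). In MDA-MB-231 HBEGF was at 43.5, 42.5 and 32.3 CPM in shNT and at 67.1, 64 and 57.2 CPM in shNRP1#5 (0.68 ± 0.14, adjusted p = 0.00205), without overlap. With siRNA it was at 96.9, 90 and 71 CPM in siNT and at 81.6, 68.7 and 69.5 CPM in siNRP1#5 (-0.21 ± 0.14, adjusted p = 0.257), which limma on TPM called lower (-0.42, adjusted p = 0.0431). The 2 changes with the #5 sequence in MDA-MB-231 differed by -0.89 ± 0.19 (0.00248).

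BTC was close to the limit of detection. In SUM159PT it had 20, 13 and 18 counts in siNT and 2 and 1 in siNRP1#5, and the test called it lower (-3.32 ± 0.89; adjusted p = 0.0117). The summed counts, 3 against 51, gave a ratio of 0.0878 (95% exact interval 0.0175 to 0.271). The call was lost without siNRP1#5 replicate 3 (0.1) and in a fit of the compared groups alone (0.0994). In MDA-MB-231 BTC lay between 7 and 58 counts in every sample with no call. In HS578T it had 0 counts in all 3 siNT samples and 8, 8 and 2 in siNRP1#5, the libraries with the MDA-MB-231 share. These were 0.295, 0.21 and 0.0517 CPM, while that share would bring 0.0997, 0.0659 and 0.0542 CPM at the MDA-MB-231 siNT level. The expression filter removed BTC from the main HS578T fit. Without a filter on low counts, edgeR called it higher in siNRP1#5 (5.82, adjusted p = 0.0115), over controls with 0 counts.

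NRG1, which lies on chromosome 8, was called in a single knockdown comparison. In MDA-MB-231 it was at 32.6, 25.5 and 20.6 CPM in shNT, at 32.2, 32.5 and 36.5 CPM in shNRP1#3 and at 49.6, 63.6 and 61.2 CPM in shNRP1#5. The last group lay above both others, with a log2 fold change of 1.16 ± 0.26 (adjusted p = 0.00519) that no left-out library removed. With siNRP1#5 it was at 27.7, 28.7 and 11.3 CPM against 16.4, 17.3 and 11.6 CPM in siNT (0.61 ± 0.26, adjusted p = 0.096), where replicate 3 lay below all controls. In SUM159PT the replicates spread widely, for example 4.45 and 40.6 CPM in siNRP1#5 and 17.1, 10.6 and 55.3 CPM in shNT, and none of the 4 comparisons was called. In HS578T NRG1 was at 16.7, 19.3 and 22.8 CPM in siNT, 26, 31.8 and 40.4 CPM in siNRP1#3 and 29.8, 31 and 43.7 CPM in siNRP1#5. Both knockdown groups lay above siNT but were not called (0.78 ± 0.36 and 0.86 ± 0.36, adjusted p = 0.241 and 0.109). siNRP1#5 was called with only the compared groups (0.0239), and both with the replicate number as a block (0.03 and 0.00848). With shRNA NRG1 was at 16.5, 42.6 and 46.2 CPM in shNT and at 61.5 and 70.9 CPM in shNRP1#3 (0.88 ± 0.4, adjusted p = 0.704). With the replicate number as a block, this HS578T comparison passed the threshold (1.33, adjusted p = 0.0166).

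**Figure D4:**
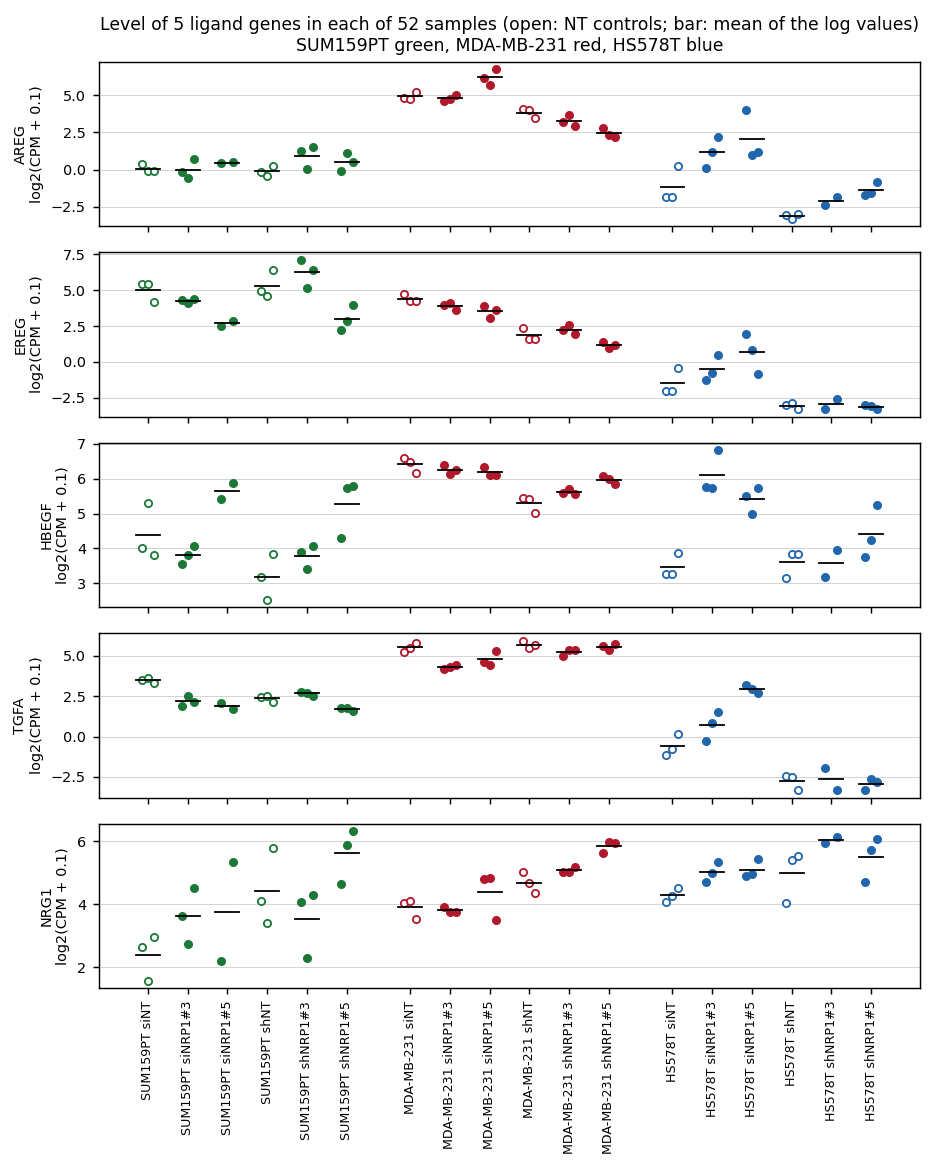
AREG, EREG, HBEGF, TGFA and NRG1 in each of the 52 samples, as log2(CPM + 0.1) on the y axis and the 18 groups on the x axis, with open points for NT controls and a bar at the mean. AREG rises from siNT to siNRP1#5 and falls from shNT to shNRP1#5 in MDA-MB-231, and NRG1 replicates of SUM159PT are spread widely.

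The NT controls of the 2 delivery methods differed in ligand levels. Delivery, selection and harvest time differ together between shNT and siNT and cannot be told apart. SUM159PT had 1 of 7 ligand genes called (14.4% of all genes), MDA-MB-231 3 of 6 (20.6%) and HS578T 3 of 5 (17.9%), and all 7 calls were lower in shNT. NRG1 had the other sign in the 3 lines, at 2.28 ± 0.77, 0.74 ± 0.26 and 0.91 ± 0.36 for SUM159PT, MDA-MB-231 and HS578T, without passing the threshold (adjusted p = 0.0651, 0.055 and 0.0892). With DESeq2 it was called higher in shNT in SUM159PT (0.0384) and MDA-MB-231 (0.0218). A fit with the replicate number as a block called it in the 3 lines (0.0103, 0.036 and 0.0396). That block joined siRNA and shRNA samples by number alone, and whether such samples deviate together was not tested. In MDA-MB-231 EREG was at 26.1, 19 and 18.5 CPM in siNT and 5.04, 2.93 and 2.86 CPM in shNT (-2.61 ± 0.24; adjusted p = 2.25e-06). AREG (-1.14 ± 0.24, adjusted p = 0.00319) and HBEGF (-1.18 ± 0.14, adjusted p = 1.34e-05) were lower too, each without overlap between the controls. TGFA was lower in SUM159PT shNT (-1.14 ± 0.23, adjusted p = 0.00727), a call lost without shNT replicate 3 (0.0514) and with limma on TPM (0.0775).

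In HS578T the controls had 5, 6 and 33 counts of AREG in siNT and 1, 0 and 1 in shNT, 4, 5 and 19 of EREG against 1, 1 and 0, and 10, 17 and 31 of TGFA against 4, 2 and 0. The ratios of summed counts per library were 0.0376 (95% exact interval 0.00441 to 0.144), 0.0591 (0.00682 to 0.234) and 0.0855 (0.0302 to 0.198). The adjusted p were 0.0275, 0.0377 and 0.0134. Marker transcripts of MDA-MB-231 were 0.528 to 1.98% in siNT. At these shares AREG would be 0.162, 0.189 and 0.609 CPM in the siNT samples, against 0.182, 0.173 and 1.08 CPM measured. EREG would be 0.112, 0.13 and 0.419 CPM, against 0.145, 0.144 and 0.624 CPM measured. TGFA would be 0.246, 0.286 and 0.92 CPM, against 0.363, 0.491 and 1.02 CPM measured. After subtraction AREG (0.374) and TGFA (0.252) were not called and EREG could not be tested. Without shNT replicate 3 none of the 3 was called (0.0795, 0.13 and 0.0591).

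The effect of the #5 sequence was compared between siRNA and shRNA in each line. In MDA-MB-231 2 of 6 ligand genes differed, AREG and HBEGF as given above, where 23.7% of all genes did. In SUM159PT 0 of 7 were called (2.51% of all genes, 1 at an unadjusted p under 0.05, DESeq2 called 1) and in HS578T 0 of 5 (0.854% of all genes, 1 at an unadjusted p under 0.05, DESeq2 called 1).

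Whether a construct changed a ligand gene equally in the 3 lines was tested with 2 degrees of freedom over all 52 samples. For siNRP1#3 2 of 7 ligand genes differed, HBEGF (adjusted p = 0.000112) and TGFA (0.000643), where 3.42% of all genes did. For siNRP1#5 it was 5 of 7, TGFA (5.11e-09), BTC (0.000174), EREG (0.000253), HBEGF (0.00649) and AREG (0.0151), where 18.2% did. For shNRP1#3 none of 7 differed (1 at an unadjusted p under 0.05, limma called 0), where 0.747% of genes did, and for shNRP1#5 1 of 7 did, AREG (0.0182), where 3.81% did. When SUM159PT and MDA-MB-231 alone were compared, 0 ligand genes were called for any construct, with 0, 2, 1 and 3 at an unadjusted p under 0.05 in the order given. After subtraction of the other lines' share at the level of their NT controls, 3 of the 8 calls were left. The 7 calls for siRNA involve the HS578T siRNA libraries that carried MDA-MB-231 markers, whereas the AREG call for shNRP1#5 involves HS578T shRNA libraries, in which the marker share was at most 0.382%, and its adjusted p after subtraction was 0.194.

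Genes that act before and after the ligands were followed in 5 lists. Among the 4 other ErbB ligands, NRG2 was lower with both #5 constructs in SUM159PT (-1.87 and -1.68, adjusted p = 0.0204 and 0.0331) and with siNRP1#5 in MDA-MB-231 (-1.15, adjusted p = 0.00102), and EGF was lower with siNRP1#5 in SUM159PT (-2.53, adjusted p = 0.00165) and MDA-MB-231 (-1.5, adjusted p = 0.000784). In MDA-MB-231 siNRP1#3, EGF fell by 0.97 on the log2 scale (0.0159) while NRG2 rose by 0.63 (0.0358), and in MDA-MB-231 shNRP1#3 NRG2 fell by 0.84 (0.0355). Over all genes, 17.9 and 5.94% were called in SUM159PT siNRP1#5 and shNRP1#5. In MDA-MB-231 siNRP1#3, siNRP1#5 and shNRP1#3 the shares were 25.7, 29.4 and 3.65%. HS578T had 0 of 3 tested called in all 4 knockdown comparisons, where 0.0356 to 18.7% of all genes were called.

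Among the 4 ErbB receptors, of which 3 were tested in each line, EGFR was lower with siNRP1#3 in SUM159PT (-1.63 ± 0.3; adjusted p = 0.00404) and MDA-MB-231 (-1.06 ± 0.14, adjusted p = 2.85e-05) and with siNRP1#5 in SUM159PT (-1.33 ± 0.34, adjusted p = 0.0166). These are 3 of the 4 comparisons in which TGFA was lower. ERBB3, which binds NRG1, was lower in MDA-MB-231 with siNRP1#5 (-1.03, adjusted p = 0.00986) and shNRP1#5 (-1.62, adjusted p = 0.000419) and higher with siNRP1#3 (0.83, adjusted p = 0.0271). ERBB2 was lower in MDA-MB-231 with siNRP1#5 (-0.57, adjusted p = 0.00346) and shNRP1#5 (-0.60, adjusted p = 0.00413). Over all genes, 8.66 and 17.9% were called in SUM159PT siNRP1#3 and siNRP1#5. In MDA-MB-231 siNRP1#3, siNRP1#5 and shNRP1#5 the shares were 25.7, 29.4 and 20.7%. No receptor was called in an HS578T knockdown, where 0.0356 to 18.7% of all genes were called.

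The list of 14 genes of ligand cleavage and trafficking was tested whole in every line. In MDA-MB-231 siNRP1#3, where 25.7% of all genes were called and 14.3% were lower, 7 were lower and 0 higher, with a median log2 fold change of -0.45 against -0.01 over all genes. They were BACE1 (-1.93; adjusted p = 1.99e-09), a protease that cleaves NRG1, the metalloproteases ADAM9 (-1.67, adjusted p = 1.69e-06), ADAM12 (-1.37, adjusted p = 2.89e-05), ADAM10 (-1.29, adjusted p = 2.78e-06), ADAM17 (-0.52, adjusted p = 0.00485) and ADAM19 (-0.51, adjusted p = 0.0126), and BACE2 (-0.68, adjusted p = 0.000737). BACE1 and ADAM9 were also lower with siNRP1#3 in SUM159PT (-2.34 and -1.5) and HS578T (-1.92 and -1.35), where 3 of 14 were lower each time and 5.5 and 2.34% of all genes were. With siNRP1#5 in MDA-MB-231, where 29.4% of all genes were called and 14.4% were higher, 5 were higher and 0 lower, with a median of 0.20 against 0.01 over all genes, among them CD9 (1.10, adjusted p = 1.63e-05) and BACE1 (0.93, adjusted p = 1.16e-06). In HS578T siNRP1#5, where 10.1% of all genes were higher, 5 were higher with a list median of 0.01, including ADAM10 (1.09, adjusted p = 0.0108) and ADAM17 (0.67, adjusted p = 0.0356), in the libraries that carried MDA-MB-231 markers, and the part of these in the result was not tested. ADAM17 is the main protease that releases TGFA, AREG and HBEGF. In MDA-MB-231 shNRP1#5, where 20.7% of all genes were called and 11.9% were lower, 4 were lower. They included ADAM10 (-0.50, adjusted p = 0.0154) and RHBDF2 (-1.01, adjusted p = 0.00763), which helps ADAM17 to mature.

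The 9 receptor inhibitors and turnover genes were called most often in MDA-MB-231 siNRP1#5, where 3 were higher and 4 lower, which is also the knockdown comparison with the highest share of all genes called (29.4%). ERRFI1, an inhibitor of EGFR, was higher (1.25; adjusted p = 0.000387), and SOCS4 (-1.37, adjusted p = 0.000231) and LRIG1 (-0.58, adjusted p = 0.0408) were lower. LRIG1 was lower with siNRP1#3 in all 3 lines (-1.96, -1.82 and -1.15 in SUM159PT, MDA-MB-231 and HS578T). Of 11 genes induced by ERK, 5 were lower in SUM159PT siNRP1#3, where 5.5% of all genes were, DUSP4 (-1.03), DUSP5 (-1.72), IER3 (-1.04), PHLDA1 (-0.92) and ETV4 (-1.79), with a median of -1.03 against -0.01 over all genes. In MDA-MB-231 siNRP1#3 3 were higher and 1 lower (25.7% of all genes called), and in HS578T siNRP1#3 1 was higher (IER3, 1.55, adjusted p = 0.00787), where 4.65% of all genes were called. In HS578T siNRP1#5 5 were higher, where 10.1% of all genes were, with DUSP5 at 1.95 (0.000497) and DUSP6 at 1.70 (0.0133), again in the libraries with MDA-MB-231 markers, whose part in the result was not tested. With shRNA, 3 genes of the ERK-induced list were lower and 0 higher in MDA-MB-231 shNRP1#3, where 2.19% of all genes were lower. In SUM159PT shNRP1#5 1 was higher and 1 lower, where 5.94% of all genes were called. The list had 0 called in SUM159PT shNRP1#3 (1.4% of all genes), MDA-MB-231 shNRP1#5 (20.7%), HS578T shNRP1#3 (0.0356%) and HS578T shNRP1#5 (0.946%).

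At the transcript level AREG, EREG, TGFA and HBEGF each had 1 leading form, the same in the lines where it was read well. AREG-201 held a median of 100 and 99% of AREG in SUM159PT and MDA-MB-231, EREG-201 88.7 and 87.2% of EREG, TGFA-201 81 and 75.1% of TGFA, and HBEGF-201 94.6 to 94.8% of HBEGF in the 3 lines (deposited isoform percent). NRG1 was spread over many of its 35 transcripts, of which 28 had any reads. NRG1-223 held a median of 46% in MDA-MB-231 (33.6 to 65.2%), overlapping the upper end of SUM159PT (median 17.5%, 2.64 to 39.8%) and above all of HS578T (median 17.6%, 9.9 to 29.3%). In MDA-MB-231 shNRP1#5 its share was 44.1 ± 2.72% (SD, n = 3) against 38.4 ± 4.26% in shNT, with overlapping ranges, while its level was 28.3 ± 3.32 TPM against 9.74 ± 2.25 TPM without overlap. EPGN-202 was at 1.72 ± 0.851 TPM in SUM159PT shNRP1#3 and at 0.147 ± 0.0513 TPM in shNT.

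Genes whose pattern was most like that of a ligand were sought among 16331 genes, by Pearson's r over the 18 group means after each line's mean was removed. These values describe groups that share controls and libraries, and no test was made. For AREG they were LONRF1 (0.92), CYP51A1 (0.92) and C6orf52 (0.89), for EREG THBD (0.89), SPTSSA (0.87) and RAB12 (0.85), and for HBEGF PTX3 (0.88), MYCL (0.87) and EIF3M (0.87). For TGFA they were HSBP1L1 (0.97), NUP210 (0.97) and HERC5 (0.96), which without the HS578T groups had 0.8, 0.67 and 0.73. For NRG1 they were ENSG00000289688 (0.91), ZNF669 (0.89) and PRSS35 (0.86). Among the ligand genes r was 0.76 for AREG and EREG, 0.72 for EREG and TGFA, 0.68 for AREG and TGFA, 0.64 for AREG and HBEGF and -0.52 for EREG and NRG1. Over the 12 groups of the other lines, a choice made after seeing the data, these were 0.53, 0.15, -0.38, 0.31 and -0.62 in the same order. The sign for AREG and TGFA thus turned. It also turned for EREG and HBEGF (0.21 to -0.36) and for HBEGF and TGFA (0.39 to -0.43).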

How the data were processed

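RNA was extracted from 52 samples of 3 cell lines in 18 groups of line and treatment, grouped by the labels. Libraries were poly(A)-selected and strand-specific, without molecular identifiers. The authors aligned trimmed reads to GRCh38 and deposited RSEM expected counts per gene, together with deposited TPM per gene and per transcript and the deposited isoform percent of each transcript (FastQC 0.11.9, Trim Galore 0.6.5, STAR 2.7.2b and RSEM 1.3.3 per the submitters' processing notes). RSEM shares reads between overlapping or similar genes by estimate, so that counts need not be whole, and they were rounded here. All columns were matched to a sample by name, and 0 were left without one. shRNA replicates were consecutive passages, so p-values measure the spread between such cultures.

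Counts were normalised by TMM and fitted in edgeR 4.0.16 (R 4.3.3) with a quasi-likelihood model of group means, 1 fit per cell line for 12 knockdown comparisons, shNT against siNT, and siNRP1#5 against shNRP1#5, and 1 fit of all 52 samples for the lines. Genes were filtered with filterByExpr, p-values were adjusted over all genes tested by Benjamini-Hochberg with a threshold of 0.05, and tests were two-sided. Fitted folds are uncertain where counts are near 0, so ratios of summed counts with 95% exact (Clopper-Pearson) intervals are given there. The intervals cover counting error only. A prior count of 2 was used for the log2 CPM of the correlations. The ligand genes and 5 pathway lists were chosen with earlier results of these data known, and no list was tested as a set. The genes named were the ligand genes, the lists, NRP1 and, for each of the 5 ligand genes tested in every line, the 3 genes most correlated with it.

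Alternatives were DESeq2 1.42.0, RLE size factors, limma 3.58.1 on log2(TPM + 0.1) of genes at 1 TPM or more in at least 2 samples, no filter on low counts, only the compared groups, the replicate number as a block, leaving out libraries, and subtraction of other lines' counts. Markers of another line had a mean of at most 0.5 CPM in the controls of the sample's own and the third line and 20 CPM or more in each control of the other. A wider list for HS578T dropped the condition on the third line. Counts subtracted were the median marker share times the mean level of the other line's NT control of the same delivery method. A sample with fewer counts of a gene than were to be subtracted was left with none. On simulated counts for MDA-MB-231 siNRP1#3 against siNT (18800 genes, 200 changed by 1.5 on the log2 scale) the fit called 192 of the changed genes and 10 others. On those for the siNRP1#3 change in the 3 lines (23416 genes, 200 changed) it called 125 and 6 others. The changed genes were drawn from genes with higher counts, so recovery of low-count genes was not tested. Every same-numbered pair of samples deviated together (correlation over 0.1) only in the SUM159PT siRNA groups (7 pairs, 0.13 to 0.37) and the HS578T shRNA groups (7 pairs, 0.2 to 0.61), so blocked values stand beside a knockdown result there where they change its call. Depth was 25310443 to 72003442 counts per sample. Gene positions were read from GENCODE, whose gene identifiers and versions matched the files, promoters from RefSeq, and figures were drawn with matplotlib 3.10.9.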

Additional observations from a re-analysis of the deposited data

Results flagged for a closer look

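In MDA-MB-231 the #5 sequence changed 2 ligand genes differently as siRNA and as shRNA, by a test of the difference itself in edgeR. AREG changed by 1.34 with siNRP1#5 and by -1.41 with shNRP1#5 on the log2 scale (adjusted p of the difference 2.61e-05, each direction seen in 3 of 3 samples against 3 controls). HBEGF changed by -0.21 and 0.68 (0.00248). Both differences held in every alternative run, and delivery, selection and harvest time differ together between the methods and cannot be told apart.

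The siNRP1#3 change differed between the 3 lines for HBEGF and TGFA (edgeR, 2 degrees of freedom). HBEGF changed by -0.70, -0.13 and 2.78 in SUM159PT, MDA-MB-231 and HS578T (adjusted p = 0.000112). TGFA changed by -1.27, -1.20 and 1.51 (0.000643). This call was lost without replicate 2 (0.0979) and after subtraction of other lines' counts at their siNT level (0.491). Between SUM159PT and MDA-MB-231 alone the adjusted p was 0.845 for HBEGF and 1 for TGFA.

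The siNRP1#5 change differed between the lines for 5 ligand genes (edgeR, adjusted p). AREG changed by 0.49, 1.34 and 3.87 in SUM159PT, MDA-MB-231 and HS578T (0.0151), HBEGF by 1.18, -0.21 and 2.00 (0.00649), EREG by -2.39, -0.84 and 2.73 (0.000253), and TGFA by -1.57, -0.69 and 3.65 (5.11e-09). BTC differed too (0.000174), with 2 and 1 counts in SUM159PT siNRP1#5, 28, 18 and 7 in MDA-MB-231 and 8, 8 and 2 in HS578T. The HS578T siNRP1#5 libraries carried MDA-MB-231 markers at 13.1 to 24.1% of their level. After subtraction at the siNT level of the other lines, AREG (0.137), EREG (0.18) and TGFA (0.345) were not called, while HBEGF and BTC were. Subtraction at the siNRP1#5 level of the other lines was not tested. AREG was also lost without replicate 1 (0.621) or 2 (0.135), EREG without replicate 2 (0.0738) and HBEGF without replicate 1 (0.0811). Between SUM159PT and MDA-MB-231 alone none passed the threshold, with adjusted p = 0.703 for AREG, 0.17 for HBEGF, 0.323 for EREG, 0.386 for TGFA and 0.0819 for BTC.

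The shNRP1#5 change differed between the lines for AREG (edgeR, adjusted p = 0.0182), with 0.82 in SUM159PT, -1.41 in MDA-MB-231 and summed counts of 53 against 2 in HS578T. It was lost without replicate 1 (0.0541), 2 (0.309) or 3 (0.0919), after subtraction (0.194), and between SUM159PT and MDA-MB-231 alone (0.128).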

How the results depend on the processing

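Of 53 ligand gene results called, 30 kept their call in every alternative. Of 944 alternative values 871 kept direction and side of the threshold, 72 lost the threshold and 1 reversed. The reversed value was TGFA in HS578T siNRP1#5, -0.04 after subtraction of other lines' counts at their siNT level. The 20 knockdown calls became 36 without a filter on low counts (17 to 21 with libraries left out). The 7 calls of shNT against siNT became 3 with limma, 11 without the filter and 4 after subtraction with either marker list (4 to 8 with libraries left out, 4 without HS578T shNT replicate 3). The 8 differences between lines became 16 without the filter, 3 after subtraction and 0 with only SUM159PT and MDA-MB-231 compared (4 to 7 with libraries left out, 4 without replicate 2 and 5 without replicate 1). The 2 differences between siNRP1#5 and shNRP1#5 became 4 with DESeq2 (2 to 3 with libraries left out). The 16 calls between lines stayed at 15 to 17. Causes were not tested, apart from the counts that subtraction removes. With 1 sample left in SUM159PT siNRP1#5 or HS578T shNRP1#3, it was assumed to vary like the other groups.

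With the replicate number as a block, the calls of shNT against siNT became 11, where siRNA and shRNA samples were joined by number alone. With the block kept within a delivery method, the knockdown calls became 25 and the differences between lines 9. In the SUM159PT siRNA and HS578T shRNA groups it changed no knockdown call other than those given in the report. Elsewhere the samples share only a number (35 of 52 samples correlated best with their own number, and the median correlation was 0.14 over 50 same-numbered pairs). Leaving out each sample of the fit of 52 in turn was not run, and each replicate number was left out instead, chosen after seeing the data, as were the wider marker list and the comparison of SUM159PT and MDA-MB-231 alone. Low counts limit EPGN in MDA-MB-231 and HS578T, BTC in HS578T and in SUM159PT siNRP1#5 and shNRP1#5, and EREG and TGFA in HS578T shRNA samples.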
